A study of Mus musculus with 2 samples.

Results

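The 10 genes described here encode RNA-binding proteins. They are grouped as progenitor (Ptbp1 and Msi1) or neuronal (Ptbp2, Srrm4, Elavl2, Elavl3, Elavl4, Nova1, Rbfox3 and Celf4), not as exclusive markers of either cell type. They were taken by gene symbol from a table of 19595 genes, and all 10 had a mean of at least 1 CPM (a count divided by the scaled size of its library), as did 14158 genes of the table. RNA was sequenced from E13 brain neural stem cells of ICR mice, as 1 knockdown library (sh1, genotype KO) and 1 control library (psicor, genotype WT). The series title names Ccdc25, a coiled-coil domain protein, and asks about its part in neurogenesis, and the labels give neither the sequence of the knockdown construct nor the time in culture. The design text speaks of triplicates, while the table holds 1 column of counts for the knockdown and 1 for the control. No difference was therefore tested, and every 95% interval covers counting error only.

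The knockdown library held 16058407 counts and the control library 16549682. Ccdc25 itself stood at 26.1 CPM in the knockdown and 32.8 CPM in the control library, a ratio of 0.794 (95% counting interval 0.697 to 0.904). Sox2, a defining gene of neural stem cells named outside the rule for named genes, stood at 476 CPM in the knockdown and 288 CPM in the control library. The 11 stem cell markers other than Msi1 summed to 8690 CPM in the knockdown and 6750 CPM in the control library. Vim and Fabp7 made up most of that sum, at ratios of 1.21 and 1.26. Of the 11 markers, 10 were higher in the knockdown library and 1, Hes1, was lower, at a ratio of 0.601. At least 2-fold higher was 1 of them, as were 7.64% of all genes, and 0 were at least 2-fold lower. The 14 neuron markers other than Rbfox3 summed to 1640 CPM in the knockdown and 4050 CPM in the control library, and 12 of them were at least 2-fold lower in the knockdown library, as were 7.76% of all genes. Astrocyte markers (8 genes) summed to 5200 CPM in the knockdown and 614 CPM in the control library, with 5 of them at least 2-fold higher, as were 7.64% of all genes. Apoe made up most of the astrocyte sum in the knockdown library, at 3480 CPM, and stood at 151 CPM in the control library. All 8 astrocyte markers were higher in the knockdown library, with a median log2 fold of 2.59. Gfap was furthest from its control level, at 481 CPM in the knockdown and 3.09 CPM in the control library. Oligodendrocyte lineage markers (10 genes) summed to 5320 CPM in the knockdown and 3010 CPM in the control library. Olig1 and Olig2 made up most of that sum, at ratios of 1.39 and 1.29, while the other 8 markers were at least 2-fold higher and the median log2 fold of the list was 3.32. Mesenchyme markers (7 genes) summed to 40.9 CPM in the knockdown and 332 CPM in the control library. Acta2 made up most of the mesenchyme sum, at 22.8 CPM in the knockdown and 261 CPM in the control library. All 6 mesenchyme markers past the minimum were at least 2-fold lower, as were 7.76% of all genes. Microglia markers (7 genes) summed to 1.46 CPM in the knockdown and 6.71 CPM in the control library, with 4 of them at 0 in the knockdown library. The part of these cell types in the values below was not tested. In bulk RNA, fewer cells of a type and less RNA per cell cannot be told apart.

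Neural progenitors and neurons splice and stabilise many transcripts differently, and a small set of RNA-binding proteins carries much of that difference. Ptbp1 binds pyrimidine-rich RNA and keeps neuronal exons out of progenitor transcripts. As neurons form, Ptbp1 is replaced by its close relative Ptbp2, while Srrm4, the Elavl, Nova, Rbfox and Celf proteins promote neuronal exons or stabilise and transport neuronal messages. Msi1 is a translational regulator of stem cells that binds the message of the Notch inhibitor Numb.

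The progenitor and neuronal genes did not split into a higher and a lower class. Msi1 was the only member whose level in the knockdown library was at least 2-fold above the control, where 7.64% of all 14158 genes were, and Celf4 and Elavl2 were the members at least 2-fold lower, where 7.76% of all genes were. The other 7 members lay within 2-fold. Among the 8 neuronal genes, 6 were lower in the knockdown library and 2 were higher, with each counting interval excluding a ratio of 1. Of all 14158 genes, 7125 were lower and 7033 higher, and the share whose interval excludes 1 was not counted. The log2 folds of the neuronal genes ranged from -1.92 to 0.87. Their median was -0.57, against a median of -0.004 over all genes past the minimum. The median absolute log2 fold of those genes was 0.359, and Ptbp2 (0.26), Srrm4 (-0.25) and Elavl4 (-0.2) differed by less than that. At a threshold of 1.5-fold, 4 neuronal genes were lower (15.7% of all genes) and 1 was higher (16% of all genes).

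**Figure D1:**
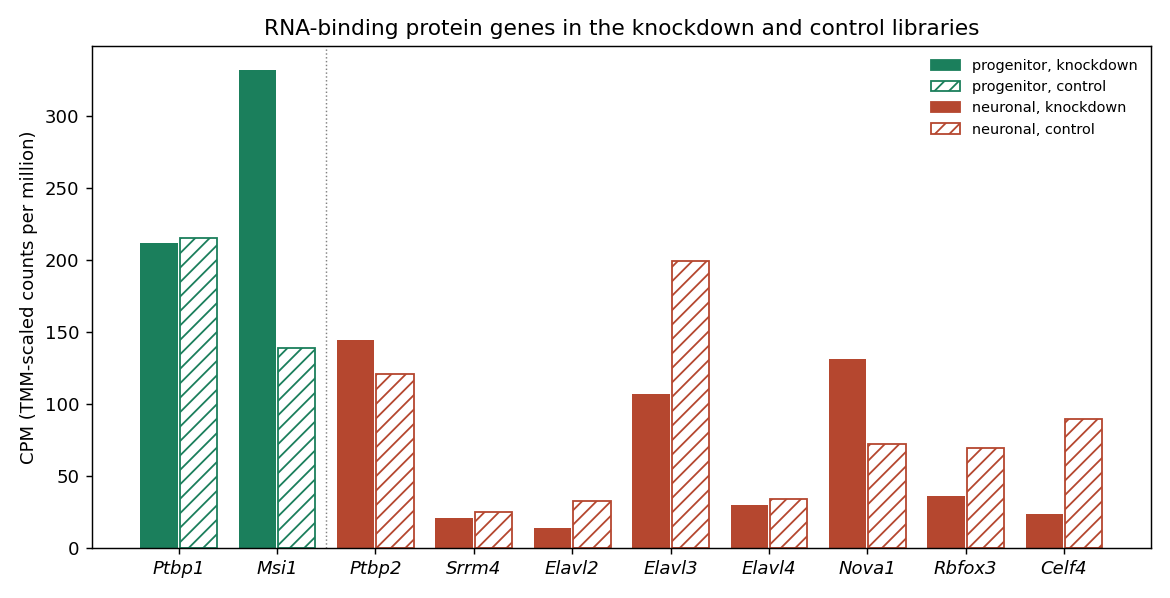
CPM (y axis) of the 10 genes in the knockdown library (filled bars) and the control library (hatched bars), progenitor genes in green and neuronal genes in red, 1 library each and so without error bars. Msi1 stood at 332 CPM in the knockdown and 139 CPM in the control library, Ptbp1 at 212 CPM in the knockdown and 215 CPM in the control library, and the neuronal genes went both ways, Nova1 being higher and Celf4 lower in the knockdown library.

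Of the progenitor genes, Ptbp1 was at nearly the same level in both libraries, while Msi1 was higher in the knockdown library. Ptbp1 (ENSMUSG00000006498, chromosome 10, 79854427 to 79864771 on the plus strand) had 3346 counts in the knockdown and 3621 in the control library. These correspond to 212 CPM in the knockdown and 215 CPM in the control library, a ratio of 0.987 whose interval of 0.942 to 1.04 includes 1. With the libraries scaled to their total counts, the ratio was 0.952 (0.908 to 0.998). Ptbp1 shares 251 of its 4740 exonic bases with Plppr3 on the opposite strand, which had 1325 counts in the knockdown and 3487 in the control library. On that strand it also shares 437 exonic bases with Gm17134 and 295 with E130317F20Rik. E130317F20Rik had 48 counts in the knockdown and 76 in the control library. Use of strand in counting is not stated. Msi1 (ENSMUSG00000054256, chromosome 5, 115429599 to 115455698 on the plus strand) had 5243 counts in the knockdown and 2346 in the control library, or 332 CPM in the knockdown and 139 CPM in the control library. Its ratio was 2.39 (2.27 to 2.51), and 94.9% of the genes past the minimum had a lower log2 fold. Msi1 over Ptbp1 in counts was 1.57 in the knockdown and 0.648 in the control library. The ratio of these ratios, which does not depend on how the libraries are scaled, was 2.42 (2.26 to 2.59).

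Ptbp2, the neuronal paralog of Ptbp1, was slightly higher in the knockdown library. Ptbp2 (ENSMUSG00000028134, chromosome 3, 119718742 to 119784466 on the minus strand) had 2277 counts in the knockdown and 2037 in the control library, or 144 CPM in the knockdown and 121 CPM in the control library, a ratio of 1.19 (1.12 to 1.27). Ptbp2 over Ptbp1 in counts was 0.681 in the knockdown and 0.563 in the control library, a ratio of ratios of 1.21 (1.12 to 1.31). Per kilobase of exon, Ptbp1 remained the more abundant of the pair, at 44.8 CPM per kb against 15.7 for Ptbp2 in the knockdown library and 45.3 against 13.2 in the control library. Ptbp3, the remaining gene of the family, had a ratio of 1.04 (0.939 to 1.16).

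The sequence at the centre of the Ptbp switch is an exon of 34 bases in each gene, which Ptbp1 protein is known to keep out of both its own transcript and that of Ptbp2, so that the shortened message is degraded. In GENCODE M21 the Ptbp2 exon lies at chr3:119724612-119724645 (GRCm38, minus strand). It is present in 3 annotated transcripts and skipped in 3, of which 2 are annotated for nonsense-mediated decay and 0 as protein-coding. The Ptbp1 exon lies at chr10:79862014-79862047 (GRCm38, plus strand), present in 4 annotated transcripts and skipped in 2, both annotated for nonsense-mediated decay. The exons are printed 5′ to 3′ with the bases that differ between them in capitals, to show how closely the target in the neuronal gene matches that in the progenitor gene.
Ptbp2 exon: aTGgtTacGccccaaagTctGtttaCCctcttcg
Ptbp1 exon: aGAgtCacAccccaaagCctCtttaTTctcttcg
The exons have the same base at 26 of 34 positions, and 22 bases of each are pyrimidines. The table gives counts per gene and not per exon, so use of these exons was not measured.

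Srrm4, which promotes the inclusion of neuronal microexons, was a little lower in the knockdown library. Srrm4 (ENSMUSG00000063919, chromosome 5) had 327 counts in the knockdown and 416 in the control library, or 20.7 CPM in the knockdown and 24.7 CPM in the control library, a ratio of 0.84 (0.724 to 0.973). Its relative Srrm3, which also acts on microexons, stood at 16.4 CPM in the knockdown and 27.9 CPM in the control library, a ratio of 0.588 (0.503 to 0.685). The broadly expressed splicing coactivators Srrm1 and Srrm2 had ratios of 1.08 (1.03 to 1.14) and 1.31 (1.27 to 1.35).

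The 3 neuronal Elavl genes, which encode proteins that bind AU-rich stretches and stabilise neuronal messages, were all lower in the knockdown library but to different degrees. Elavl2 (ENSMUSG00000008489, chromosome 4) had 215 counts in the knockdown and 542 in the control library, or 13.6 CPM in the knockdown and 32.2 CPM in the control library, a ratio of 0.424 (0.36 to 0.497). Elavl3 (ENSMUSG00000003410, chromosome 9) had 1683 counts in the knockdown and 3348 in the control library, or 107 CPM in the knockdown and 199 CPM in the control library, a ratio of 0.537 (0.506 to 0.57). Elavl3 shares 256 exonic bases with Gm49318 on its own strand. Elavl4 (ENSMUSG00000028546, chromosome 4) had 466 counts in the knockdown and 573 in the control library, or 29.5 CPM in the knockdown and 34.0 CPM in the control library, a ratio of 0.869 (0.767 to 0.984). The intervals of Elavl2 and Elavl3 lie below that of Elavl4. Their ubiquitous relative Elavl1 stood at 117 CPM in the knockdown and 141 CPM in the control library, a ratio of 0.831 (0.782 to 0.884). The summed counts of the neuronal trio over those of Elavl1 were 1.28 in the knockdown and 1.88 in the control library, a ratio of ratios of 0.681 (0.629 to 0.737). By CPM per kb, Elavl3 supplied 45.7% of the Elavl family total in the knockdown and 54.8% in the control library, and Elavl1 33.3% in the knockdown and 25.9% in the control library.

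Nova1, a splicing factor of neurons, was higher in the knockdown library, as was Ptbp2 to a smaller degree. Nova1 (ENSMUSG00000021047, chromosome 12) had 2072 counts in the knockdown and 1212 in the control library, or 131 CPM in the knockdown and 71.9 CPM in the control library, a ratio of 1.83 (1.70 to 1.96). Its paralog Nova2 stood at 84.1 CPM in the knockdown and 138 CPM in the control library, a ratio of 0.608 (0.568 to 0.651). Nova1 over Nova2 in counts was 1.56 in the knockdown and 0.520 in the control library, a ratio of ratios of 3.0 (2.72 to 3.32). Per kilobase, Nova1 was 59.9% of the pair in the knockdown and 33.2% in the control library, so the more abundant paralog differed between the libraries. Nova2 shares 2652 exonic bases with an antisense gene, so its value is uncertain if reads were counted without strand. Nova1 shares 310 exonic bases with Gm33869 on its own strand, which had only 45 counts in the knockdown and 36 in the control library.

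The promoters of Elavl3 and Nova1 are shown because these neuronal genes differed in opposite directions. RefSeq windows on GRCm38.p6, from 250 bases before to 50 after the start, were found for 8 of the 10 members. They are printed 5′ to 3′ on the minus strand, with E-boxes (CANNTG, the motif class that proneural bHLH factors bind, of which CAGCTG is a form) in capitals.
Elavl3, chr9:22051974-22052273: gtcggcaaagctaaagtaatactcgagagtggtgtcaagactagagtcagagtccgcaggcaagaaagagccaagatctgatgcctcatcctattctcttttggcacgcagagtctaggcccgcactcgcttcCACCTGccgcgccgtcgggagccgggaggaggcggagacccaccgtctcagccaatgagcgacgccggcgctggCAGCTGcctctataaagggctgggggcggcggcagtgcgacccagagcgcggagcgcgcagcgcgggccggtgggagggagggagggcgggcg
Nova1, chr12:46818718-46819017: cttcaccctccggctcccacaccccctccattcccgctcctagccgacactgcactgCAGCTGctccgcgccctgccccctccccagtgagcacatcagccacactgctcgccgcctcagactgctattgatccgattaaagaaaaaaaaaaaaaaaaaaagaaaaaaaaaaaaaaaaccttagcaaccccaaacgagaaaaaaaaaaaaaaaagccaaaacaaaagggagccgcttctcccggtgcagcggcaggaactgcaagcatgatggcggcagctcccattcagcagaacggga
Elavl3 has 2 E-boxes, of which that of the form CAGCTG starts 43 bases before the transcription start, and Nova1 has 1, also CAGCTG, starting 193 bases before it. Searching both strands, 72.3% of the 32851 RefSeq promoter windows hold a CANNTG and 16.3% a CAGCTG, so these matches are common. The left and right parts of the element bound by REST, a repressor of neuronal genes, TTCAGCACC and GGACAGC, were in 0.371% and 6.56% of windows. Neither was found in the Elavl3 or the Nova1 window, and among the windows of the 8 members searched only that of Ptbp2 held a GGACAGC.

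Rbfox3, which encodes NeuN, the antigen used to label mature neurons, was about as much lower as Elavl3. Rbfox3 (ENSMUSG00000025576, chromosome 11) had 562 counts in the knockdown and 1170 in the control library, or 35.6 CPM in the knockdown and 69.4 CPM in the control library, a ratio of 0.513 (0.463 to 0.568). It lies just inside the 2-fold threshold, with a log2 fold of -0.96, and passed it at -1.01 when the libraries were scaled to their total counts. All 3 Rbfox genes were lower in the knockdown library, and Rbfox1, a splicing factor of neurons and muscle, was furthest, at 6.15 CPM in the knockdown and 37.3 CPM in the control library, a ratio of 0.165 (0.132 to 0.204). Rbfox2, the most abundant of the family by CPM per kb, had a ratio of 0.624 (0.593 to 0.658).

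Celf4, a regulator of neuronal messages whose loss causes seizures in mice, was the lowest member relative to the control. Celf4 (ENSMUSG00000024268, chromosome 18) had 374 counts in the knockdown and 1511 in the control library, or 23.7 CPM in the knockdown and 89.7 CPM in the control library, a ratio of 0.264 (0.236 to 0.296). Only 2.14% of genes past the minimum had a lower log2 fold. All 5 other Celf genes were lower in the knockdown library too. Celf5 had a ratio of 0.358 (0.329 to 0.390) and Celf6 one of 0.387 (0.311 to 0.480). The ratios of Celf1, Celf2 and Celf3 were nearer to 1, at 0.643, 0.743 and 0.641, and Celf2 shares 1961 exonic bases with an antisense gene. By CPM per kb, Celf4 made up 8.17% of the family total in the knockdown and 15.3% in the control library.

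**Figure D2:**
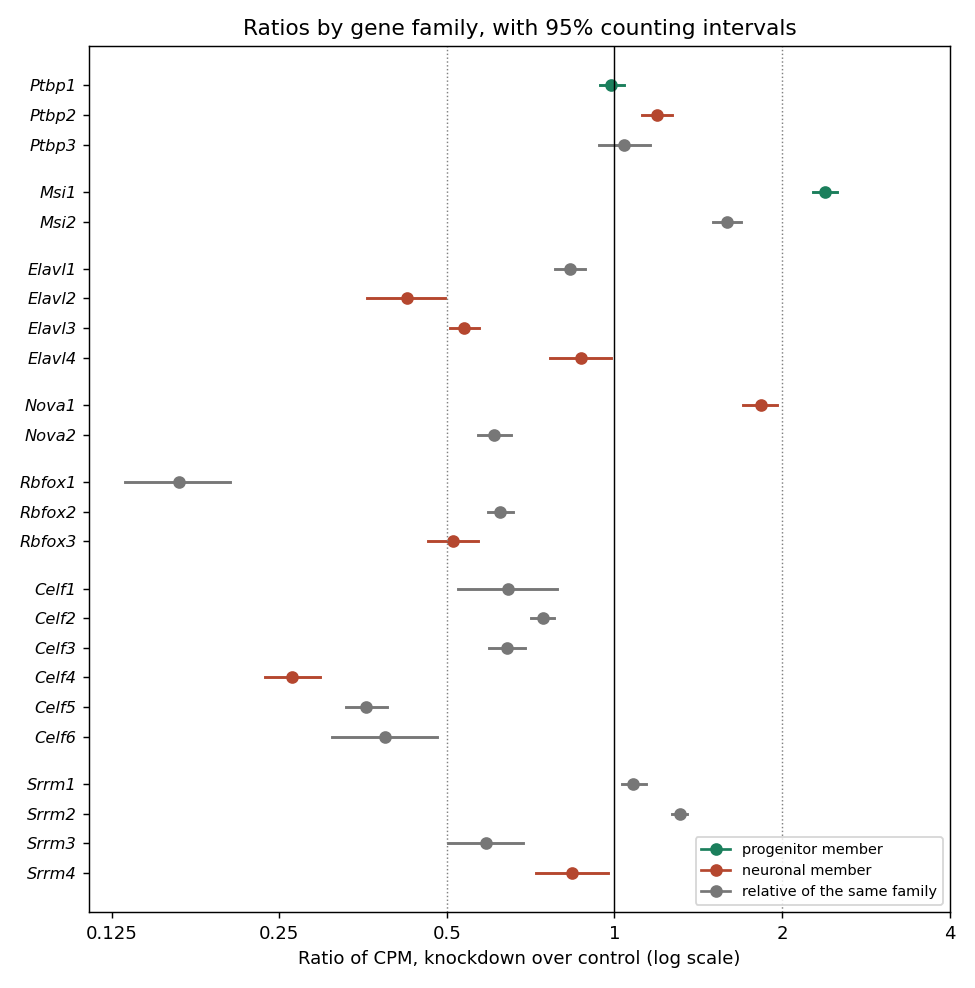
Ratio of CPM, knockdown over control (x axis, log scale), for the 10 members and 14 relatives grouped by gene family, with points for the ratio, lines for the 95% counting interval and dotted lines at 2-fold. The Celf and Rbfox genes all lie below 1, Msi1 and Msi2 lie above it, and Nova1 and Nova2 lie on opposite sides.

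Over the 14 relatives, chosen from the members' families, 3 were at least 2-fold lower (Rbfox1, Celf5 and Celf6), 0 were at least 2-fold higher and 11 lay within 2-fold, beside 7.76% lower and 7.64% higher among all genes. Their median log2 fold was -0.64. Msi2, the relative of Msi1, stood at 190 CPM in the knockdown and 119 CPM in the control library, a ratio of 1.59 (1.5 to 1.69), so both Musashi genes were higher. Msi1 over Msi2 in counts was 1.75 in the knockdown and 1.17 in the control library, a ratio of ratios of 1.5 (1.39 to 1.62).

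The abundance order of the members differed between the libraries. Per kilobase of exon, Msi1 led in the knockdown library at 57.3 CPM per kb, followed by Ptbp1 at 44.8. Ptbp2, Elavl3 and Nova1 came next at 15.7, 15.5 and 15.0 CPM per kb, and neighbours among these did not differ beyond their counting intervals. Rbfox3 and Elavl4 followed at 6.13 and 5.49, also with overlapping intervals, then Celf4 at 2.76 and Srrm4 at 2.39, again overlapping, and Elavl2 at 1.64 CPM per kb. In the control library Ptbp1 led at 45.3 CPM per kb, before Elavl3 at 28.8 and Msi1 at 24.0. Ptbp2 at 13.2 and Rbfox3 at 11.9 had overlapping intervals there, and were followed by Celf4 at 10.4, Nova1 at 8.22, Elavl4 at 6.31, Elavl2 at 3.87 and Srrm4 at 2.84 CPM per kb. Elavl3 lay below Msi1 in the control library when the longest transcript was used as the length.

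Summed over genes, the balance of neuronal to progenitor counts was lower in the knockdown library, and this rested mostly on Msi1. The 8 neuronal genes summed to 7976 counts in the knockdown and 10809 in the control library, and the progenitor pair to 8589 counts in the knockdown and 5967 in the control library. The neuronal sum over the progenitor sum was 0.929 in the knockdown and 1.81 in the control library, a ratio of ratios of 0.513 (0.490 to 0.536). With Ptbp1 alone as the denominator it was 0.799 (0.755 to 0.844), and with Msi1 alone 0.330 (0.312 to 0.350). Of the 16 pairs of a neuronal and a progenitor gene, 13 had a ratio of ratios whose whole interval lay below 1. For 2 pairs (Ptbp2 and Nova1 over Ptbp1) the whole interval lay above 1. The interval of the remaining pair, Elavl4 over Ptbp1 at 0.88, included 1. All 8 pairs with Msi1 were below 1, from Celf4 over Msi1 at 0.111 (0.0977 to 0.125) to Nova1 over Msi1 at 0.765 (0.701 to 0.835). The 8 pairs with each progenitor gene share their denominator, so they are not independent.

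**Figure D3:**
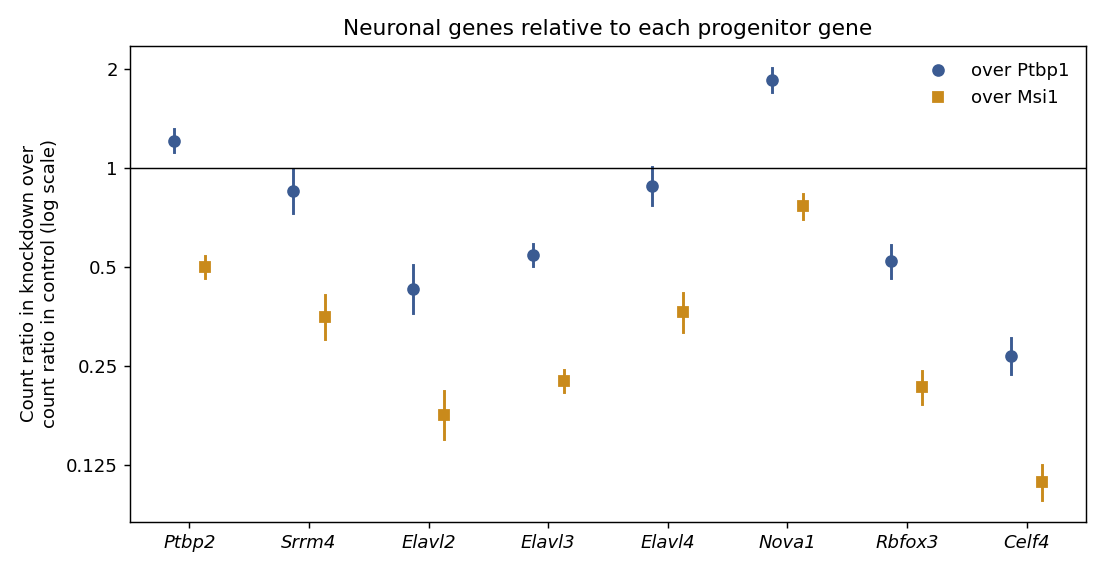
Count ratio of each neuronal gene to Ptbp1 (circles) or to Msi1 (squares) in the knockdown library, divided by the same ratio in the control library (y axis, log scale), with 95% counting intervals. Every square lies below 1, while Ptbp2 and Nova1 over Ptbp1 lie above 1, at 1.21 and 1.85.

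The neuronal RNA-binding proteins differed less than general neuron markers did. The 14 neuron markers had a median log2 fold of -1.85, and only 1 of the 8 neuronal members, Celf4, lay below that median. Of the markers, 13 of 14 lay below the members' median of -0.57, Map2 at 0.11, named after its value was seen, being the exception. The markers furthest from their control level were the synaptic calcium sensor Syt1 at a log2 fold of -3.62, the neurofilament Nefl at -2.84 and the cortical transcription factors Tbr1 at -2.13 and Neurod6 at -2.06. Nefl and the antisense Nefm have 1108 exonic bases in common. Both lists were chosen with earlier results of these data known, and the difference between their medians was not tested.

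General splicing factors, mostly SR proteins and hnRNPs, gave a background for the members. Their median log2 fold was -0.06, and 32 of the 33 past the minimum differed by under 2-fold, beside the 7.64% higher and 7.76% lower by that threshold among all genes. Sf1, which binds the branch point and is neither an SR protein nor an hnRNP, was the 1 gene at least 2-fold higher. It stood at 10.6 CPM in the knockdown and 4.87 CPM in the control library. Srsf5 had a log2 fold of 0.66, Hnrnpu -0.57 and Hnrnpa3 -0.47.

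**Figure D4:**
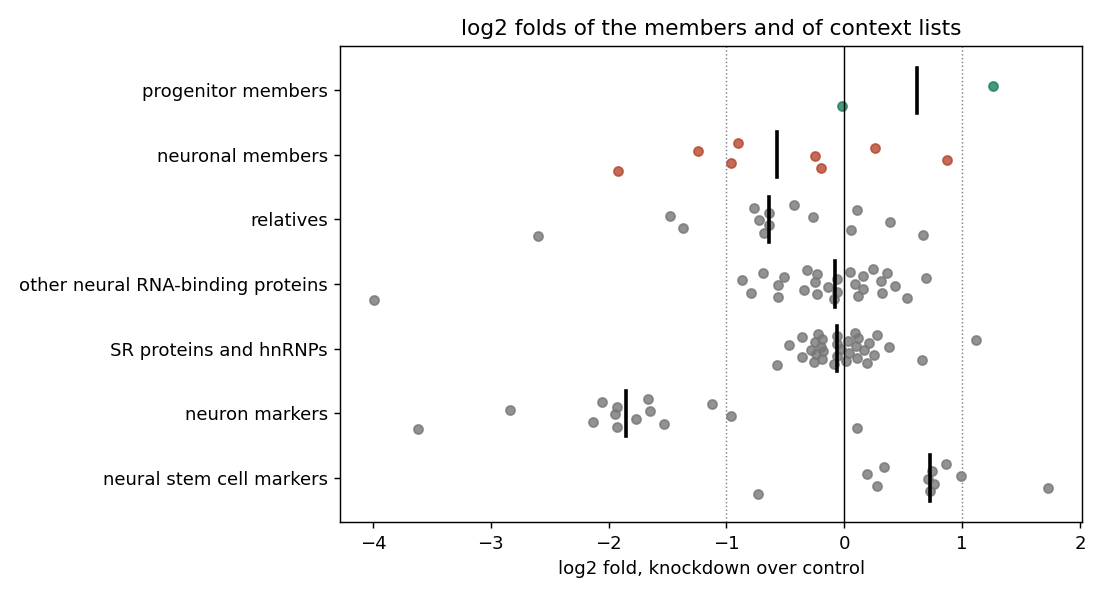
log2 fold, knockdown over control (x axis), of each gene past the minimum in the member groups and 5 context lists (rows), with the median as a vertical bar and dotted lines at 2-fold. The neuronal members spread from -1.92 to 0.87, and their median of -0.57 lies between those of the neuron markers at -1.85 and the stem cell markers at 0.73. The row labelled SR proteins and hnRNPs also holds other general splicing factors, Sf1 among them.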

How the data were processed

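Samples were grouped by their titles, 1 knockdown and 1 control library. The authors deposited raw counts of each gene, per the file headers, and CPM obtained by multiplying these counts by a constant of each library, with 0.5 in place of 0 counts. The deposited fold (a ratio of these CPM) and its log2 are the authors' own, and their deposited p-values name no test; of these only the CPM were used here, as an alternative. Bowtie2 2.2.3, TopHat2 2.0.12 and HTSeq 0.6.0 are named with the build mm9, per the submitters' processing notes, without roles or settings. The positions of all 10 members equal those of GENCODE M21 on GRCm38 and are printed as the table gives them. Whether counting used strand is not given in the sources used here.

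Counts were scaled with TMM factors (edgeR 4.0.16), 0.9821 for the knockdown and 1.018 for the control library. The log2 fold, knockdown over control, used a count plus 0.5; CPM and ratios used none. Ratios have exact conditional binomial 95% intervals, ratios of ratios exact conditional ones and levels exact Poisson ones. PCR duplicates were not told apart, so intervals cover counting error only. The expression minimum was a mean of 1 CPM, and lengths are unions of annotated exons. The calculation was tested on simulated data. The members and lists were chosen with earlier results of these data known. Named genes are the members, all relatives past the minimum, up to 4 genes of each other list by absolute log2 fold, and Ccdc25. Of the listed genes, Sox2, Hes1, Vim, Fabp7, Olig1, Olig2, Map2, Nefm and Mir124-2hg are named outside this rule. Some lists of other cell types are given as sums only. No genes of like pattern are named, since 2 libraries give 1 fold per gene. Alternatives were DESeq2 1.42.0 factors, total-count scaling, the authors' CPM, other minimums, a prior count of 5, a threshold of 1.5-fold and other lengths.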

Additional observations from a re-analysis of the deposited data

How the results depend on the processing

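The log2 folds of the 10 members kept their sign and stayed within their counting interval under DESeq2's factors, total counts, the authors' CPM and a prior count of 5. Relative to TMM, the median log2 fold of all genes shifted by -0.016 with DESeq2's factors and by -0.052 with total counts or the authors' CPM. The interval of Ptbp1 included 1 with TMM and DESeq2's factors and not at total counts. At total counts and with the authors' CPM, 3 members instead of 2 were at least 2-fold lower, with Rbfox3 added. At 1.5-fold, 2 members were higher and 4 lower, among the neuronal members 1 was higher and 4 lower, and among the relatives 1 was higher and 8 lower. Among all genes past the minimum, 16% were higher and 15.7% lower at that threshold. The ratio of neuronal to progenitor sums (0.513) was 0.586 without Elavl3, 0.799 without Msi1 and 0.33 without Ptbp1, all in the same direction. In the control library, the neuronal members above Msi1 per kilobase numbered 0 by longest transcript instead of 1, and those above Ptbp1 numbered 1 by coding length instead of 0. The lists other than members and relatives had 25 values that moved, with no list's median changing sign, and 189 that did not. No paired analysis was possible because each group holds 1 library, and leaving out a library was not possible for the same reason. Depth limits Elavl2, with 215 counts in the knockdown library, most among the members.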

Other observations

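Of 11 regulators of the switch, 1 was at least 2-fold lower and 0 were higher (7.76% and 7.64% of all genes), with a median log2 fold of 0.45. At a threshold of 1.5-fold, 5 were higher and 2 lower, beside 16% higher and 15.7% lower among all genes. Mir124a-1hg, a host transcript of miR-124, which targets Ptbp1, had 161 counts in the knockdown and 631 in the control library, a ratio of 0.273 (0.228 to 0.325). The other listed miR-124 host, Mir124-2hg, had 234 counts in the knockdown and 273 in the control library, a ratio of 0.916 whose interval of 0.766 to 1.09 includes 1. The co-repressor Rcor2 stood at 370 CPM in the knockdown and 188 CPM in the control library, a ratio of 1.97 (1.89 to 2.06), and the phosphatase Ctdsp2, a partner of REST, at 276 CPM in the knockdown and 141 CPM in the control library. C130071C03Rik, the transcript that overlaps Mir9-2 on the same strand, stood at 186 CPM in the knockdown and 103 CPM in the control library, a ratio of 1.80 (1.70 to 1.91). The mature miRNA from Mir9-2 (chr13:83738821-83738843, GRCm38.p6, plus strand, RefSeq) is shown with its seed, bases 2 to 8, in capitals, because its host was among the regulators furthest from their control level.
mmu-miR-9-5p: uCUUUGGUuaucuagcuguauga
Mature miRNAs were not measured in these libraries.

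Of 11 transcripts that the members are known to act on, 1 was at least 2-fold higher (Agrn) and 1 at least 2-fold lower (Gap43), a share near the 7.64% higher and 7.76% lower among all genes. Their median log2 fold was -0.13. Gap43, a growth cone protein whose message Elavl4 stabilises, stood at 216 CPM in the knockdown and 679 CPM in the control library. Gap43 is also among the neuron markers used above, and Elavl4 itself had a ratio of 0.869. A link between these values was not tested. Dlg4, the postsynaptic scaffold PSD-95, whose message Ptbp proteins destabilise through an exon, had a ratio of 0.514 (0.492 to 0.537), while Gabbr1, a GABA receptor subunit under Ptbp control, had one of 1.74 (1.67 to 1.82). Agrn, a target of Nova splicing, had a ratio of 2.31 (2.24 to 2.38). Among 28 other RNA-binding proteins with roles in neural cells, 27 lay within 2-fold, 1 was at least 2-fold lower and 0 were higher, beside the same 7.76% lower and 7.64% higher among all genes. Lin28b, a heterochronic factor of early progenitors, was the exception, with 4 counts in the knockdown and 76 in the control library, a ratio of 0.0562 (0.0149 to 0.150). Qk, a splicing factor of glia and progenitors, stood at 680 CPM in the knockdown and 423 CPM in the control library, while Khdrbs3 had a log2 fold of -0.79 and Rbpms one of -0.87.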
